A study of Schistosoma mansoni with 12 samples.

Results

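The libraries described here came from adult male Schistosoma mansoni, a blood fluke that lives paired in the veins of its host, after exposure to S-praziquantel (S-PZQ), set against worms kept in vehicle. Praziquantel, the standard drug against schistosomiasis, is a pair of mirror-image molecules, and the S form is known as the less active of them against the worm. The comparison asks which transcripts of the male worm differ after exposure to this form. Its members are the 908 RefSeq transcripts that the authors listed for S-PZQ against vehicle in at least 1 of their 3 tables (DESeq, EBSeq and edgeR), out of 1928 listed anywhere in the series. They lie on 884 loci, and the annotation gives no product name for 308 (33.9%).

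Each S-PZQ sample held about 41 whole male worms of the Puerto Rican PR-1 strain, 49 days old, exposed to 0.5 µM S-PZQ for 18 hours, and each vehicle sample held as many worms of the same strain, sex and age kept for the same time in 1% DMSO. Each of these groups had 4 samples, which make up 8 of the 12 libraries of the series, and each sample was a pool of worms, sequenced as a stranded mRNA library on an Illumina NextSeq 500. Whether the 4 samples of a group came from separate cultures or hosts is not given in the labels, so errors below measure the spread between these samples, which may be technical. In pooled whole worms, fewer cells of a type and less RNA per cell cannot be told apart. The remaining 4 libraries came from worms of the same age exposed to 0.5 µM R-PZQ, the other form, for 18 hours. Their values enter only where R-PZQ is named.

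The listed transcripts held 3725958 to 4829638 counts per S-PZQ library and 3857953 to 5491157 per vehicle library. Levels are scaled counts, that is, counts divided by the library factor behind the authors' EBSeq table, and they are not divided by transcript length. The factors were 0.955 to 1.29 in the S-PZQ libraries and 0.695 to 1.05 in the vehicle libraries, so relative depth moved with the treatment, and vehicle 2 had the lowest factor. The scaled sum over the listed transcripts was 3916455 ± 263801 (SD, n = 4) with S-PZQ and 5280112 ± 398047 with vehicle. Transcripts of eggshell proteins, products of the female reproductive tract, were high in vehicle 1 and vehicle 3. No pair of libraries within a group was a copy of another, with a chi-square of at least 34.1 per degree of freedom.

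A gene's message level in a worm reflects how much of it is made and how fast it is lost. Messages for ribosomal proteins, muscle proteins and enzymes of energy metabolism are among the most abundant in an animal, and the genes of cytosolic ribosomal proteins are short and usually expressed together. Praziquantel is known for a rapid calcium-dependent contraction of the worm's muscle and for damage to the tegument, the living outer layer through which the worm feeds and hides from host immunity.

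Most listed transcripts were lower with S-PZQ. The mean was lower in 610 (67.2%) and higher in 298 (32.8%). All 4 S-PZQ values lay below all 4 vehicle values in 438 transcripts (48.2%) and above all 4 in 265 (29.2%), which makes 703 in all (77.4%), and the values overlapped in 205. Listing by the authors' tests on these same libraries favours such separation, so these shares are the background against which each group of genes is read below, and they are no test. The separations were mostly small, with a median log2 ratio of -0.52 among the 438 and of 0.50 among the 265.

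With edgeR's quasi-likelihood test and every unlisted transcript of the 11783 in the annotation entered with a p of 1, 0 of the 908 passed an adjusted p of 0.05, and the smallest adjusted p was 0.107. The same test gave an unadjusted p under 0.05 for 846 of them. DESeq2 with the same factors and adjustment called 107 higher and 413 lower. Because the test set as the main one called none, values are given below as higher or lower, with their spread, and not as changes that passed a test.

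Protein synthesis made up the largest group. All 68 listed transcripts of cytosolic ribosomal proteins, on 64 loci, had a lower mean with S-PZQ, and in 50 of them (73.5%, against 48.2% of all listed transcripts) the S-PZQ values lay wholly below the vehicle values. Of the 24 small-subunit transcripts 20 were separated in this way, and of the 44 large-subunit transcripts 30. The log2 ratios fell in a narrow band from -1.0 to -0.36, with a median of -0.56, against -0.42 over all listed transcripts.

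Summed over the 68 transcripts, the level was 561428, 431846, 438890 and 491501 scaled counts in the S-PZQ libraries, against 591473, 851398, 658985 and 762549 in the vehicle libraries. The sums did not overlap, although S-PZQ 1 and vehicle 1 lay close to each other, and vehicle 2 was the highest. The mean was 480916 ± 59911.5 (SD, n = 4) with S-PZQ and 716101 ± 114393 with vehicle, a log2 ratio of -0.57 ± 0.15 (± SE, here and after every log2 ratio below). Library depth moved with these sums, since vehicle 2, with the lowest factor, had the highest sum and S-PZQ 2, with the highest factor, the lowest. For S-PZQ 1 and 4 (factors 1.13 and 0.955) over vehicle 1 and 3 (1.05 each), the log2 ratio of the sums was -0.25. The vehicle libraries of this subset are the 2 with high eggshell transcripts, and without those 2 the ratio of all remaining libraries was -0.75, so depth and that difference between vehicle libraries cannot be told apart here. With relative depth as a covariate, all 703 separated transcripts kept their sign, which their choice for separated values favours. The median log2 ratio of the lower ones was -0.39, against -0.52 without the covariate. By edgeR's quasi-likelihood test, 515 listed transcripts then had an unadjusted p under 0.05, against 846 without it. The smallest adjusted p was 0.477.

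Among single ribosomal proteins, 40S S27 (Smp_041650), of the small subunit, had 2225, 1758, 1821 and 2423 scaled counts in the S-PZQ libraries, against 2929, 5243, 3085 and 5166 in the vehicle libraries. Vehicle 2 and 4 stood well above vehicle 1 and 3, yet all 4 exceeded every S-PZQ library, and the log2 ratio was -1.0 ± 0.25. 40S S30 (Smp_014650), which is made fused to a ubiquitin-like protein in other animals, was at -0.92 ± 0.26. In the large subunit, 60S L17 (Smp_024850) had 12874, 8802, 8629 and 9611 scaled counts in the S-PZQ libraries, against 13447, 23409.7, 16267 and 21508 in the vehicle libraries. Its log2 ratio was -0.90 ± 0.23, close to the -0.87 ± 0.23 of 60S L35a (Smp_061200).

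Ribosomal transcripts with high counts covered much of the same range. 40S S4 (Smp_011570.1) averaged 20699 ± 2224 scaled counts with S-PZQ and 29416 ± 3744 with vehicle, and 60S acidic protein P0 (Smp_009690.1), part of the stalk that binds translation factors, averaged 19366 ± 3062 scaled counts with S-PZQ and 27511 ± 4897 with vehicle. Their log2 ratios were -0.51 ± 0.12 and -0.51 ± 0.17, but only S4 had values that did not overlap. 40S S9 (Smp_180000), the next highest of the small subunit, averaged 10983 ± 1026 scaled counts with S-PZQ and 17182 ± 3638 with vehicle and was at -0.65 ± 0.17 without overlap. L40 is made as a fusion with ubiquitin, and its loci Smp_089430 and Smp_046690 were at -0.86 ± 0.24 and -0.45 ± 0.15. These fusions share ubiquitin sequence with other genes, so their counts are uncertain.

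Other parts of the translation machinery were lower as well. All 8 listed proteins placed by name with organelle ribosomes had lower means, with a median log2 ratio of -0.65. Of these, 6 (75%, against 48.2% of all listed transcripts) did not overlap. Some names, such as 30S S12 (Smp_074470) and 30S S8 (Smp_076740), hold no mitochondrial label, and their place was not checked. Mitochondrial L7/L12 (Smp_066740) had 1479, 1201, 1418 and 1327 scaled counts in the S-PZQ libraries, against 1755, 2358, 2474 and 2747 in the vehicle libraries, a log2 ratio of -0.78 ± 0.14. Of 16 translation factors 11 were lower and 1 was higher without overlap, with a median of -0.46. These shares were 68.8% and 6.25%, against 48.2% and 29.2% of all listed transcripts. Elongation factor 1-alpha (Smp_099870), which brings aminoacyl-tRNA to the ribosome, was at -0.42 ± 0.10, and the initiation factor sui1 (Smp_019440), which helps pick the start codon, at -0.71 ± 0.17. The 1 higher member was the epsilon subunit of initiation factor 2B (Smp_019380), the exchange factor that recharges initiation factor 2, at 0.30 ± 0.08.

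The 3 listed transcripts of ribosome assembly were all separated and lower, against 48.2% of all listed transcripts. The 40S rRNA protein (Smp_066990) had 12713, 8354, 9269.6 and 11179 scaled counts in the S-PZQ libraries, against 14645, 23233, 17917 and 24654 in the vehicle libraries. Its groups lay far apart except for S-PZQ 1 and vehicle 1, and its log2 ratio was -0.95 ± 0.22. A nucleolar protein of the snoRNP family (Smp_022730), which guides rRNA modification, was at -0.57 ± 0.19.

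**Figure D1:**
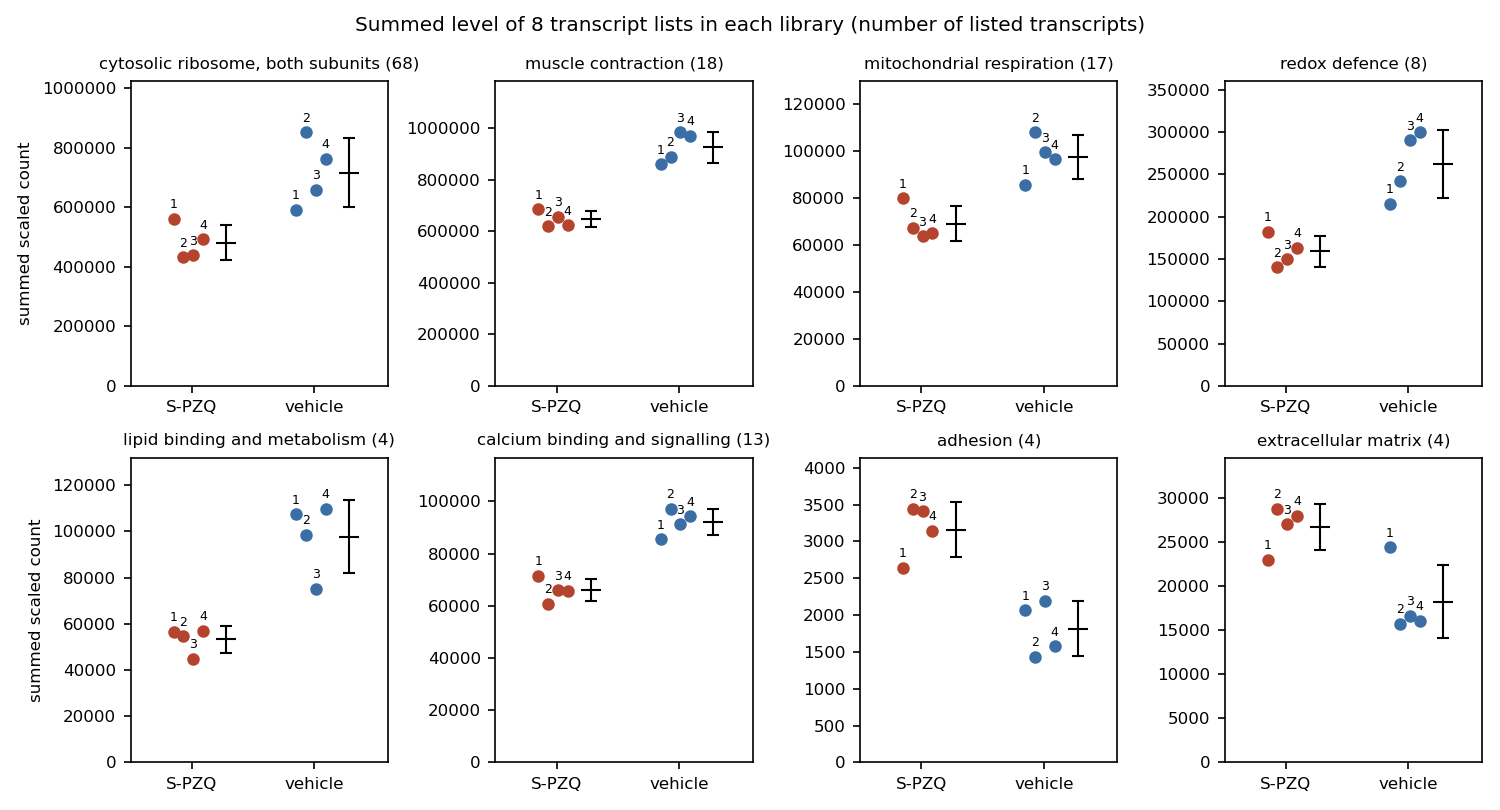
Summed scaled count (vertical axes, from 0) of the listed transcripts of 8 lists in each library, with S-PZQ left of vehicle, replicate numbers beside the points, and the mean with SD (n = 4) as black bars. S-PZQ libraries lie below all vehicle libraries in the 6 panels from the cytosolic ribosome (480916 against 716101 on average) to calcium binding, and above them in the adhesion panel, while vehicle 1 lies within the S-PZQ range in the extracellular matrix panel.

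Energy metabolism showed the same direction. All 17 listed transcripts of mitochondrial respiration had lower means, and 13 (76.5%, against 48.2% of all listed transcripts) did not overlap. The gamma subunit of ATP synthase (Smp_033670.1), the central shaft of the enzyme, had 1851, 1811, 1954 and 1599 scaled counts in the S-PZQ libraries, against 2544, 3109, 3234 and 3435 in the vehicle libraries. No vehicle value came near the S-PZQ range, and the log2 ratio was -0.77 ± 0.11. The 14 kDa subunit of ubiquinol-cytochrome c reductase (Smp_024120) was at -0.71 ± 0.14, cytochrome c (Smp_033400), the electron carrier between complexes, at -0.55 ± 0.13, and the ATP synthase B chain (Smp_154530) at -0.60 ± 0.13. Respiratory members with overlapping values included a cytochrome c oxidase transcript (Smp_128610) at -0.42 ± 0.12.

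Adult schistosomes live largely on host glucose. Of the 4 listed glycolytic transcripts 3 (75%, against 48.2% of all listed transcripts) were separated and lower. Glyceraldehyde-3-phosphate dehydrogenase (Smp_056970.1) had 142124, 114053, 106415 and 115934 scaled counts in the S-PZQ libraries, against 155811, 193849, 159212 and 152776 in the vehicle libraries, a log2 ratio of -0.47 ± 0.13. Lactate dehydrogenase (Smp_038950), which makes the lactate the worm excretes, was at -0.42 ± 0.09.

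In the redox list, 8 transcripts were listed, all with lower means, and 6 (75%, against 48.2% of all listed transcripts) did not overlap. Thioredoxin Trx1 (Smp_008070), a small protein that keeps thiols reduced, had 17724, 11843, 14495 and 15221 scaled counts in the S-PZQ libraries, against 17963, 30312, 26058 and 28749 in the vehicle libraries. S-PZQ 1 reached almost the level of vehicle 1, and the log2 ratio was -0.80 ± 0.19. Ferritin (Smp_087760), which stores iron, was at -0.85 ± 0.16, the glutathione S-transferase of 28 kDa (Smp_054160), long studied as a vaccine antigen, at -0.76 ± 0.16, and peroxiredoxin Prx1 (Smp_059480), which removes hydrogen peroxide, at -0.57 ± 0.18. A superoxide dismutase precursor (Smp_095980) had 44.4, 16.3, 14.6 and 6.28 scaled counts in the S-PZQ libraries, against 829, 4.32, 80.4 and 0 in the vehicle libraries. Its values overlapped and its vehicle mean rested on vehicle 1, without which the log2 ratio was -0.47, against -3.49 with it.

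Muscle transcripts were mostly lower, in thick and thin filament proteins alike. Of 18 listed, 13 (72.2%, against 48.2% of all listed transcripts) were separated and lower, and 2 (11.1%, against 29.2%) separated and higher. The median log2 ratio of the 18 was -0.52. Their sum was 686367, 620389, 656988 and 624703 scaled counts in the S-PZQ libraries, against 860896, 890859, 985096 and 971416 in the vehicle libraries. The groups were well apart, with a log2 ratio of -0.52 ± 0.06, and it was -0.49 for S-PZQ 1 and 4 over vehicle 1 and 3.

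A myosin heavy chain (Smp_085540.1), the motor of the thick filament, had 269286, 233971, 281217 and 250315 scaled counts in the S-PZQ libraries, against 336772, 370469, 425578 and 404721 in the vehicle libraries. All vehicle libraries exceeded all S-PZQ libraries, with a log2 ratio of -0.57 ± 0.09. Paramyosin (Smp_021920.1), the core protein of invertebrate thick filaments, was at -0.63 ± 0.08, alpha-actinin (Smp_046130), which anchors actin, at -0.76 ± 0.17, troponin T (Smp_179810) at -0.55 ± 0.10 and troponin I (Smp_018250.1) at -0.47 ± 0.12. A minor transcript of tropomyosin (Smp_031770.1, XM_018798804.1) had 13.3, 23.3, 18.9 and 33.5 scaled counts in the S-PZQ libraries, against 58.1, 60.5, 54.5 and 74.6 in the vehicle libraries. Its log2 ratio was -1.48 ± 0.30, while XM_018798802.1 of the same locus was at -0.36 ± 0.12 with overlapping values, and the split of reads between transcripts of 1 locus is an estimate.

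The 2 separated and higher muscle members were a titin (Smp_163920) at 0.63 ± 0.17 and a paramyosin-like allergen (Smp_129550) at 0.29 ± 0.07. Another locus named titin (Smp_157010) was lower, at -0.52 ± 0.08. Of 10 listed transcripts of microtubules and their motors 8 (80%, against 48.2% of all listed transcripts) were lower and 1 (10%, against 29.2%) higher without overlap. Among the lower ones were a beta tubulin (Smp_030730) at -0.42 ± 0.13 and a dynein light chain (Smp_095520) at -0.70 ± 0.21. Bicaudal D-like protein (Smp_028070.1), a dynein adaptor in the fly, was at -1.14 ± 0.36 in transcript XM_018794143.1. The more abundant XM_018794141.1 of the same locus averaged 4517 scaled counts with S-PZQ and 9428 with vehicle. It was at -1.06 ± 0.33 with overlapping values. All 4 scaffold proteins of the spectrin and talin families, which tie membranes to the cytoskeleton, were lower without overlap, against 48.2% of all listed transcripts. Talin 2 (Smp_142630) was at -0.49 ± 0.07. Reads of close tubulin, actin and calmodulin copies could have been shared between loci, so the split between such copies is uncertain.

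Of the tegument, the worm's outer layer, all 8 listed transcripts had lower means, but only 4 did not overlap, a share (50%) near the background. A surface membrane antigen (Smp_195180) had 19172, 11068, 12351 and 14327 scaled counts in the S-PZQ libraries, against 20371, 32595, 31631 and 36009 in the vehicle libraries. S-PZQ 1 and vehicle 1 nearly met, while vehicle 2, 3 and 4 lay far above, and the log2 ratio was -1.08 ± 0.24. The 13 kDa tegumental antigen Sm13 (Smp_195190), on the adjacent locus, was at -0.62 ± 0.22. A tetraspanin (Smp_155310.1), of a family of membrane organisers, had 7.10, 3.11, 6.86 and 0 scaled counts in the S-PZQ libraries, against 585, 0, 39.2 and 0 in the vehicle libraries, so that its listing rested on vehicle 1 and 3, the libraries with high eggshell transcripts, and without vehicle 1 its log2 ratio was -1.62, against -5.19 with it.

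Lipid-binding proteins were lower in all 4 listed cases, each without overlap, against 48.2% of all listed transcripts. A saposin-domain protein (Smp_130100), of a family that binds and solubilises lipids in the gut, had 35688, 32089.6, 26145 and 32676 scaled counts in the S-PZQ libraries, against 75746, 70436, 48316 and 75533 in the vehicle libraries. The lowest vehicle library was well above the highest S-PZQ library, and the log2 ratio was -1.09 ± 0.17. NPC2 (Smp_194840), a cholesterol carrier, was at -1.01 ± 0.34, and 2 fatty acid binding proteins, Smp_095360.1 and Smp_046800.1, were at -0.44 ± 0.13 and -0.37 ± 0.12. The worm cannot make fatty acids and takes them from its host. As the saposin is also a gut marker, a gut contribution was not tested, since the only other listed gut transcript was a cathepsin D (Smp_013040.1) at 0 in all vehicle libraries and S-PZQ 1.

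Calcium-related transcripts held the lowest log2 ratio of a named transcript whose values did not overlap. Of 13 listed, 8 (61.5%, against 48.2% of all listed transcripts) were lower and 2 (15.4%, against 29.2%) were higher without overlap. The median log2 ratio was -0.63. Calcium-binding protein 2 (CaBP2, Smp_025390) had 193, 83.1, 161 and 106 scaled counts in the S-PZQ libraries, against 230.4, 917, 778 and 615 in the vehicle libraries. Vehicle 1 lay just above S-PZQ 1 and the other vehicle libraries far above, giving a log2 ratio of -2.23 ± 0.43.

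The loci on either side of CaBP2 in the RefSeq annotation also encode small calcium-binding proteins, and both were lower. A polcalcin-like protein (Smp_135970) had 99.4, 61.3, 72.0 and 93.2 scaled counts in the S-PZQ libraries, against 129, 177, 158 and 186 in the vehicle libraries, a log2 ratio of -1.0 ± 0.19. A protein of the 16 kDa type (Smp_025380) had 1790, 1999, 2733 and 2082 scaled counts in the S-PZQ libraries, against 3313, 4219, 3639.6 and 4474 in the vehicle libraries, a log2 ratio of -0.86 ± 0.17. The values of each of these 3 neighbours were separated between the groups. A further copy of the 16 kDa type (Smp_135980), 3 loci from CaBP2, was at -0.48 ± 0.16, while the locus between it and the polcalcin-like gene (Smp_025410) was not listed. As similar neighbours, these genes may share reads.

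**Figure D2:**
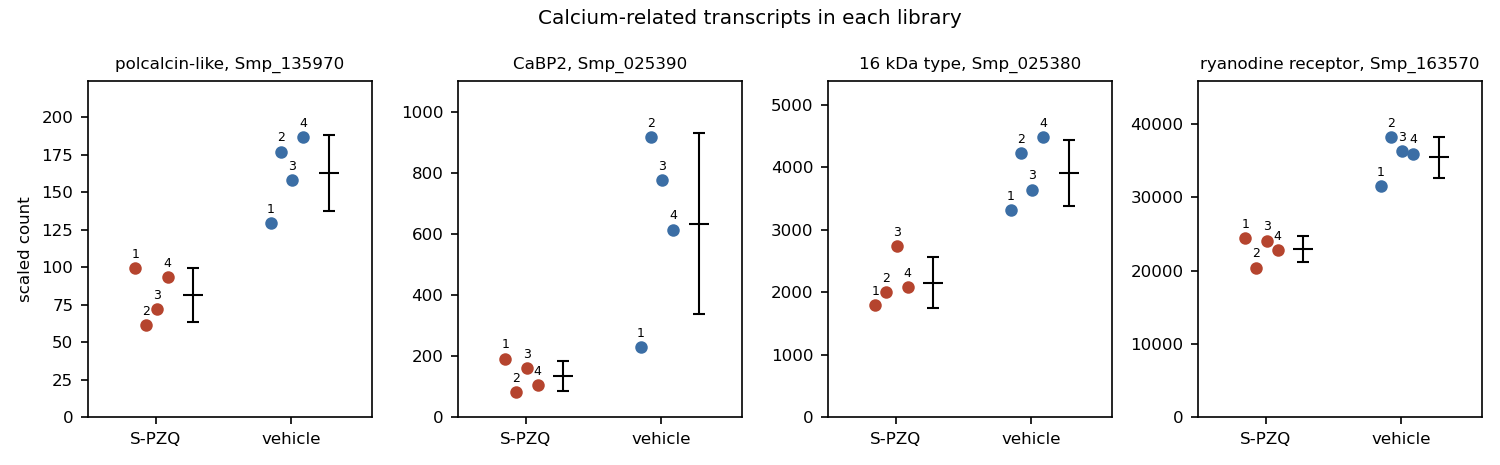
Scaled count (vertical axes, from 0) of 4 calcium-related transcripts in each library, with S-PZQ left of vehicle, replicate numbers beside the points, and the mean with SD (n = 4) as black bars. The first 3 are CaBP2 and the loci on either side of it, and for CaBP2 itself S-PZQ libraries held 83.1 to 192.6 scaled counts and vehicle libraries 230.4 to 917; in the first 3 panels and for the ryanodine receptor no S-PZQ library reaches a vehicle library.

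Of the calcium channels and sensors, a transcript related to the ryanodine receptor (Smp_163570), the release channel of the muscle's calcium store, had 24374, 20411, 24085 and 22765 scaled counts in the S-PZQ libraries, against 31516, 38130.4, 36249 and 35899.8 in the vehicle libraries. The groups were clearly apart, with a log2 ratio of -0.63 ± 0.08. An L-type calcium channel subunit (Smp_124530) was at -0.73 ± 0.30 with overlapping values, and 1 calmodulin locus (Smp_096410.1) was at -0.72 ± 0.18 without overlap. The 2 higher members both move calcium out of the cell: a plasma membrane calcium ATPase (Smp_199210) at 0.26 ± 0.08 and a sodium/calcium exchanger (Smp_152830) with 581, 676, 645 and 611 scaled counts in the S-PZQ libraries, against 473, 294, 491 and 524 in the vehicle libraries. The exchanger's log2 ratio was 0.50 ± 0.17, and its vehicle 2 value stood below the other vehicle values.

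All 4 listed adhesion transcripts had higher means and 3 (75%) did not overlap, against a background of 29.2%. A cell adhesion molecule (Smp_024660) had 916, 957, 862 and 808 scaled counts in the S-PZQ libraries, against 634, 341, 584 and 369 in the vehicle libraries. Every S-PZQ library exceeded every vehicle library, with a log2 ratio of 0.88 ± 0.23. Teneurin (Smp_150770), a membrane protein of cell contacts, was at 0.67 ± 0.17, and a cadherin (Smp_125510) was at 1.08 ± 0.30 with overlapping values. The sum of the 4 was at 0.80 ± 0.17 on the log2 scale. It was at 0.44 for S-PZQ 1 and 4 over vehicle 1 and 3, and at 1.07 without vehicle 1 and 3.

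Extracellular matrix transcripts were higher on average in all 4 listed cases but separated in 1 (25%, near the 29.2% of all listed transcripts). A laminin (Smp_143680), of the basement membrane, had 5699, 5924, 5472 and 5269.8 scaled counts in the S-PZQ libraries, against 4588, 2623, 3517 and 3189 in the vehicle libraries, a log2 ratio of 0.68 ± 0.18. Both collagen alpha-1(V) transcripts overlapped, at 0.52 ± 0.21 (Smp_170330) and 0.64 ± 0.26 (Smp_170340). For Smp_170340, vehicle 1 held 5124 scaled counts, above S-PZQ 1 at 3953.

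**Figure D3:**
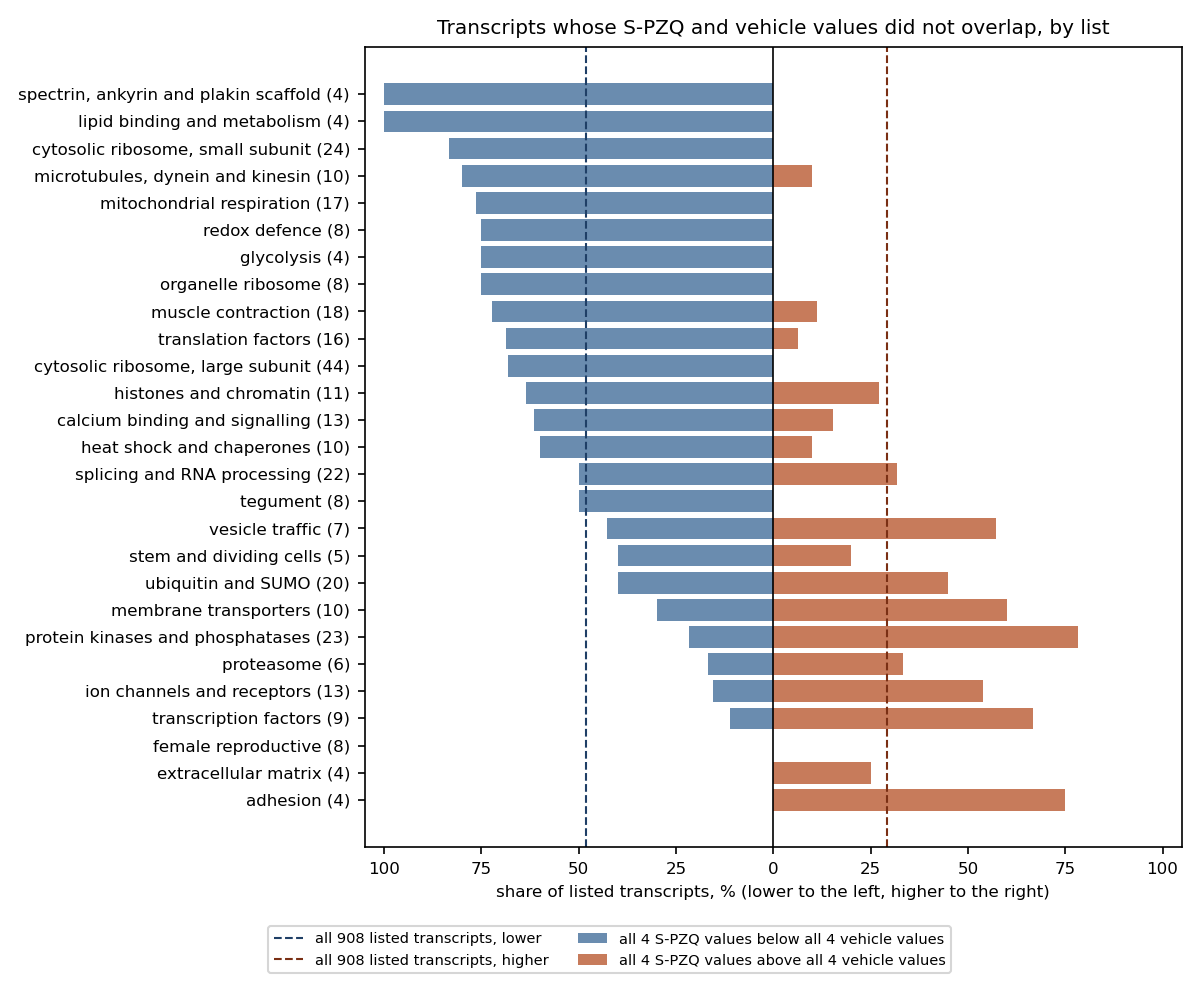
Share of each list's transcripts (horizontal axis, in %) whose 4 S-PZQ values all lay below (bars to the left) or all above (bars to the right) the 4 vehicle values, for lists with 4 or more listed transcripts, whose numbers stand in brackets. Dashed lines mark the same shares over all 908 listed transcripts, 48.2% lower and 29.2% higher. Ribosome, respiration and muscle lists extend past the lower line, and adhesion, kinases, transcription factors, transporters and channels past the higher one. The lists also differ in genomic span, given below.

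Protein kinases and phosphatases, the enzymes that add and remove phosphate, were the largest list with mainly higher members. Of 23 listed, 18 (78.3%, against 29.2% of all listed transcripts) were higher and 5 (21.7%, against 48.2%) were lower without overlap. None overlapped. The sizes were small, with a median log2 ratio of 0.34. A tyrosine kinase (Smp_173380) had 1319, 1817, 1517 and 1559.7 scaled counts in the S-PZQ libraries, against 1241, 631, 1114 and 756 in the vehicle libraries, a log2 ratio of 0.73 ± 0.24. The summed level of the list did not separate the groups, with a log2 ratio of 0.01 ± 0.04.

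Both listed receptor tyrosine phosphatases were higher, Smp_130570 at 0.73 ± 0.17 and Smp_134180 at 0.72 ± 0.14, as were the cGMP-dependent protein kinase (Smp_078230) at 0.34 ± 0.06 and the gamma subunit of AMP-activated kinase (Smp_144700), which senses cellular energy, at 0.44 ± 0.11. In the other direction, a serine/threonine kinase (Smp_123020) had 4131, 3595, 4257 and 3614 scaled counts in the S-PZQ libraries, against 5367, 7059, 6412 and 8286 in the vehicle libraries. It was the lowest of the list, at -0.80 ± 0.14.

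Ion channels and receptors had 7 higher and 2 lower separated members among 13 (53.8% and 15.4%, against 29.2% and 48.2% of all listed transcripts). The summed level of the list was nevertheless lower without overlap, at a log2 ratio of -0.30 ± 0.06. This list also holds the ryanodine receptor and L-type channel transcripts given above. With vehicle the ryanodine receptor averaged 35449 scaled counts of a mean sum of 61108. A transient receptor potential (TRP) channel (Smp_169150), of a family of cation channels, had 71.0, 59.0, 40.3 and 46.1 scaled counts in the S-PZQ libraries, against 22.8, 0, 23.0 and 26.0 in the vehicle libraries. Its counts were low, vehicle 2 was at 0 and the log2 ratio was 1.59 ± 0.52. A TRP transcript of another subfamily (Smp_035140) had 302, 304, 261 and 282 scaled counts in the S-PZQ libraries, against 190.4, 249, 194 and 158 in the vehicle libraries, a log2 ratio of 0.54 ± 0.15. A TRP transcript with overlapping values (Smp_163160) was at 0.61 ± 0.21.

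A voltage-gated potassium channel (Smp_160780) was at 0.63 ± 0.14, an acid-sensing channel (Smp_167450) at 0.71 ± 0.17 and a kainate-type glutamate receptor (Smp_153780) at 0.34 ± 0.10, all separated and higher. The potassium channel of the TWIK family (Smp_034850), a leak channel, was separated and lower, at -0.71 ± 0.14. An orphan G protein-coupled receptor of the rhodopsin type (Smp_072450) had 316, 266, 206 and 193 scaled counts in the S-PZQ libraries, against 138, 59.0, 144 and 98.3 in the vehicle libraries. It was at 1.16 ± 0.31.

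Membrane transporters were divided, with 6 higher and 3 lower without overlap among 10 (60% and 30%, against 29.2% and 48.2% of all listed transcripts). The higher ones included 2 drug and anion pumps of the ABC family, multidrug resistance protein 1 (Smp_129820, by its name ABC subfamily C) with 1984, 1660.1, 1743 and 1844 scaled counts in the S-PZQ libraries, against 1305, 1231, 1371 and 789 in the vehicle libraries and a multidrug resistance associated protein (Smp_147250.1) at 0.38 ± 0.10. The log2 ratio of Smp_129820 was 0.62 ± 0.17. A sodium- and chloride-dependent neurotransmitter transporter (Smp_160360), also the 1 listed neuron marker, was lower, at -0.66 ± 0.17.

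Transcription factors were mostly higher. Of 9 listed, 6 (66.7%, against 29.2% of all listed transcripts) were higher and 1 (11.1%, against 48.2%) lower without overlap. Their summed level overlapped between the groups, with a log2 ratio of -0.09 ± 0.07. A zinc finger protein (Smp_018170) was at 0.83 ± 0.27, and another (Smp_133180.1) was the lower one, with 111, 119.6, 148 and 172 scaled counts in the S-PZQ libraries, against 299.9, 319.6, 218 and 277 in the vehicle libraries and a log2 ratio of -1.02 ± 0.18. The paired box protein pax-6 (Smp_142940), a regulator of eye and nerve development in other animals, had 119.8, 243, 184 and 233 scaled counts in the S-PZQ libraries, against 108, 93.6, 84.2 and 42.9 in the vehicle libraries. Its log2 ratio was 1.25 ± 0.32, and S-PZQ 1 was only slightly above vehicle 1.

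Histones and chromatin proteins had 7 lower and 3 higher separated members among 11. The higher share (27.3%) was near the 29.2% of all listed transcripts, and the lower share was 63.6%, against 48.2%. All 4 listed histones were among the lower ones, with H4 (Smp_053300) at -0.84 ± 0.17 and H2A (Smp_086860) at -0.77 ± 0.16. The other 3 lower members were enhancer of polycomb (Smp_014400.1) at -0.70 ± 0.24, the chromatin reader chromobox 1 (Smp_144550) at -0.47 ± 0.12 and chmp1 (Smp_055880.1) at -0.32 ± 0.08. The higher ones were a chromodomain helicase (Smp_128600) at 0.32 ± 0.08, a bromodomain protein (Smp_168890) at 0.62 ± 0.15 and a histone lysine methyltransferase (Smp_043580) at 0.65 ± 0.18. Among 5 listed transcripts of stem and dividing cells, DNA polymerase delta and epsilon subunits were lower (Smp_076660 at -0.34 ± 0.06 and Smp_036920 at -0.43 ± 0.12) and DNA topoisomerase II (Smp_065840) was higher, at 0.24 ± 0.07. Splicing and RNA processing was divided, with 11 lower and 7 higher among 22, shares near the background.

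Protein breakdown had members on both sides. In the ubiquitin and SUMO list, 8 of 20 (40%) were lower and 9 (45%) higher without overlap, against 48.2% and 29.2% of all 908. The lower ones included ubiquitin (Smp_017280) at -0.66 ± 0.18, a SUMO-like protein (Smp_045510) at -0.42 ± 0.14 and a ubiquitin fusion degradation protein (Smp_196510) at -0.26 ± 0.06. Of the conjugating enzymes, E2 G (Smp_028100.1) was lower, at -0.51 ± 0.09, and a non-canonical one (Smp_174670) was higher, at 0.26 ± 0.07. Of the loci named ubiquitin 1, Smp_130170 was lower, at -0.58 ± 0.18, and Smp_123260 had a higher mean, at 0.76 ± 0.32, with overlapping values. The higher ones included the ligase E3a (Smp_172420) at 0.62 ± 0.23 and USP9X (Smp_153690) with 581, 662, 704 and 635 scaled counts in the S-PZQ libraries, against 459.8, 281, 509 and 317 in the vehicle libraries. The log2 ratio of USP9X was 0.72 ± 0.21, and a cullin (Smp_031000.1), a scaffold of ligases, was at 0.79 ± 0.23, while another cullin (Smp_082850.1) was lower at -0.45 ± 0.11. In the proteasome the beta 3 core subunit (Smp_121430.1) was lower, at -0.46 ± 0.14, and regulatory subunit rpn2 (Smp_175250) was higher, at 0.19 ± 0.03.

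Chaperones, which help proteins fold, had 6 lower and 1 higher separated members among 10. These shares were 60% and 10%, against 48.2% and 29.2% of all listed transcripts. Prefoldin subunit 2 (Smp_030290) was at -0.60 ± 0.17, the mitochondrial co-chaperonin groES (Smp_097380) at -0.54 ± 0.16 and an hsp40 (Smp_035200.1) at -0.40 ± 0.10. In vesicle traffic 4 were higher and 3 lower of 7 without overlap (57.1% and 42.9%, against 29.2% and 48.2%). A rab exchange factor (Smp_129990) was at 0.53 ± 0.16 and the Golgi SNARE bet1 (Smp_130940) at -0.50 ± 0.17. The remaining lists had few listed members. A venom allergen-like protein, VAL7, was higher, at 0.71, the tRNA synthetases for isoleucine (Smp_129650) and tryptophan (Smp_150680) were at 0.27 ± 0.07 and -0.31 ± 0.07, and 1 of 2 proteins of entry into and folding in the endoplasmic reticulum was separated and lower.

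The 10 named transcripts with the highest log2 ratios were mostly counted at low levels. The splicing factor cwc-21 (Smp_041730.1) had 53.2, 142, 89.1 and 107 scaled counts in the S-PZQ libraries, against 0, 0, 18.2 and 0 in the vehicle libraries. Its vehicle counts came from vehicle 3 alone, and the log2 ratio of 4.43 ± 1.47 has a wide error. A mixed-lineage leukemia protein (Smp_140390.1), a histone methyltransferase by name, was at 3.44 ± 1.01, a ran-binding protein (Smp_078310.1) at 2.96 ± 1.46 and a cAMP phosphodiesterase (Smp_129270) at 2.06 ± 0.87, each with at least 1 vehicle library at 0. The vehicle counts of the ran-binding protein came from vehicle 3 alone, and without that library the mixed-lineage leukemia protein was at 4.41 and the phosphodiesterase at 2.90.

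With no vehicle library at 0 were an innexin (Smp_129020), of the family of invertebrate gap junctions, at 1.11 ± 0.40 and the centrosomal protein Cep63 (Smp_156520) at 1.15 ± 0.37. A regulator of G protein signalling (Smp_069400) had 49.7, 25.6, 32.6 and 33.5 scaled counts in the S-PZQ libraries, against 14.3, 7.20, 14.4 and 0 in the vehicle libraries. Vehicle 4 was at 0 and all 4 S-PZQ values were above the vehicle values, with a log2 ratio of 1.98 ± 0.59. Chosen after their values were seen, higher transcripts with at least 500 scaled counts on average included notch (Smp_140800), a receptor of cell fate decisions, at 0.62 ± 0.20, Smad2 (Smp_085910), which carries TGF-beta signals, at 0.55 ± 0.14, nephrin (Smp_132700) at 0.61 ± 0.13 and a chondroitin sulfate proteoglycan-related protein (Smp_180760) at 0.71 ± 0.14.

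Besides those above, the 10 named transcripts with the lowest log2 ratios included a retinaldehyde-binding protein (Smp_165340) at -1.41 ± 0.31, an O-methyltransferase (Smp_012560) at -1.02 ± 0.28 and adenosylhomocysteinase (Smp_028440.1), which clears the by-product of methylation, with 24.0, 122, 123 and 114 scaled counts in the S-PZQ libraries, against 228, 233, 218 and 176 in the vehicle libraries. S-PZQ 1 was far below the other S-PZQ libraries for adenosylhomocysteinase, whose log2 ratio was -1.16 ± 0.37. A transcript with no product name (Smp_014610), chosen after its values were seen, had 137, 100.2, 102 and 55.5 scaled counts in the S-PZQ libraries, against 3701, 141, 532 and 325 in the vehicle libraries. It had the lowest log2 ratio, -3.57 ± 1.07, among separated transcripts with a mean of at least 10 scaled counts, but this rested on vehicle 1, a library with high eggshell transcripts. Without vehicle 1 it was at -1.75, above CaBP2 at -2.51.

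**Figure D4:**
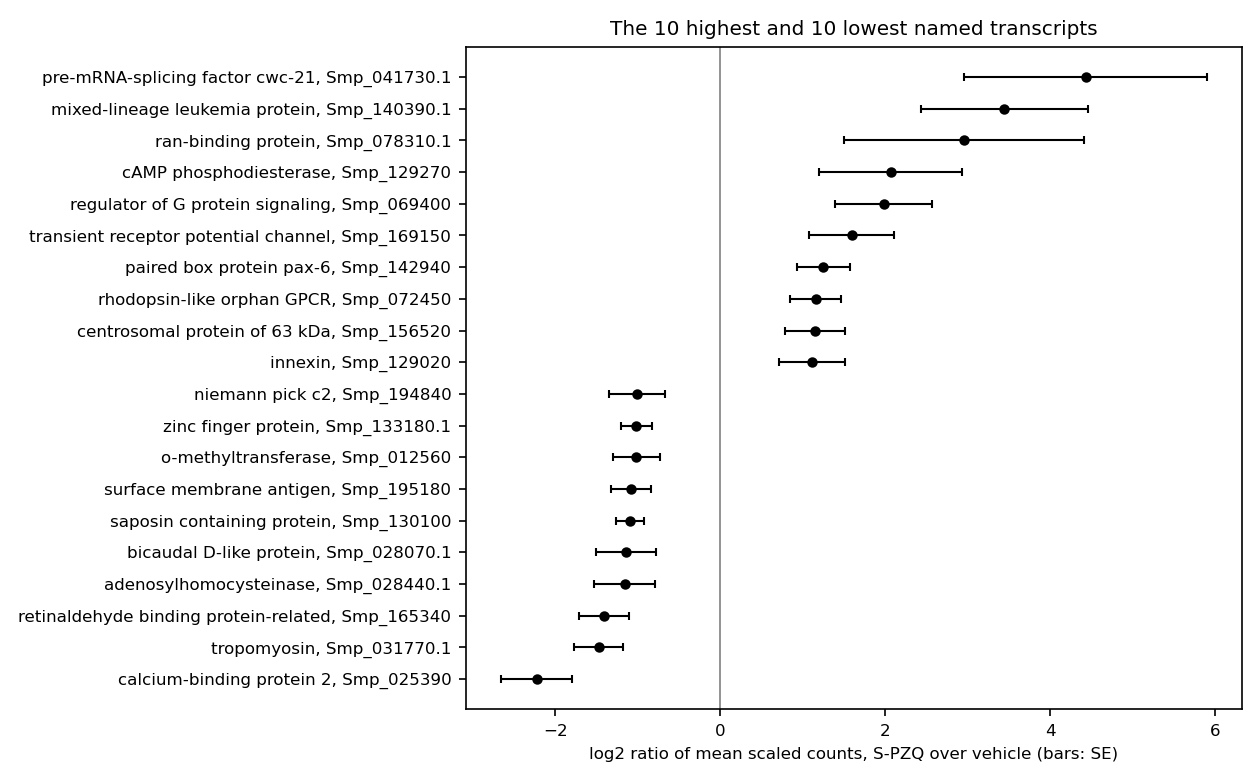
Log2 ratio of the mean scaled counts, S-PZQ over vehicle (horizontal axis), with SE over 4 libraries a group, for the 10 highest and 10 lowest named transcripts whose values did not overlap. The highest, cwc-21 at 4.43, has a wide error, while CaBP2 at -2.23 is the lowest.

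Markers of female tissue were listed although the worms were labelled male. All 8 listed eggshell and tyrosinase transcripts, which belong to eggshell formation, overlapped between the groups. Their sum was 180.2, 113, 96.0 and 33.5 scaled counts in the S-PZQ libraries, against 7081, 96.4, 1210.3 and 81.3 in the vehicle libraries. Vehicle 1 and vehicle 3 stood apart, and without them the log2 ratio of the sums was 0.25, against -4.33 with them. Eggshell protein Smp_191910 held 3097 scaled counts in vehicle 1, and another locus, Smp_000430.1, named eggshell precursor protein, held 2220.2. Without these 2 vehicle libraries, values did not overlap in 295 higher, 562 lower and 66 ribosomal transcripts, but such counts can only stay or grow when libraries are left out.

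Listed transcripts also differed in the genomic span of their genes, a property that the authors' listing did not use. The span, taken from the RefSeq gene models of assembly ASM23792v2 and including introns, had a median of 26.7 kb for the 265 higher transcripts and 3.51 kb for the 438 lower ones. The median was 4.02 kb for lower transcripts without the cytosolic ribosomal ones and 8.58 kb for all 10711 protein-coding genes. In genes of under 2 kb, 5.62% of 249 listed transcripts were higher and 70.7% lower without overlap. In genes of 30 kb or more, 67.6% of 173 were higher and 19.1% lower, and the median log2 ratio was 0.40, against -0.54 in the shortest class.

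The classes between followed this order, with 7.94% higher at 2 to 5 kb, 16% at 5 to 10 kb and 44.3% at 10 to 30 kb. Levels differed along with span, since the higher transcripts had a median of 858 scaled counts and the lower ones 2726. Within 1000 to 10000 scaled counts, 1.42% of the 282 listed transcripts with a span under 10 kb were higher, against 48% of the 221 with a longer span. Transcript length and RNA quality were not analysed here, and their part in this relation was not tested. The lists differed in span too, with medians of 799 bp for cytosolic ribosomal, 1660 bp for respiration and 18989.5 bp for muscle transcripts. Medians were 16257 bp for transcription factors, 34409 bp for transporters, 38455 bp for channels, 40125 bp for kinases and 75295.5 bp for adhesion. Shares by list were not set against genes of like span, and a part of span in them was not tested.

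**Figure D5:**
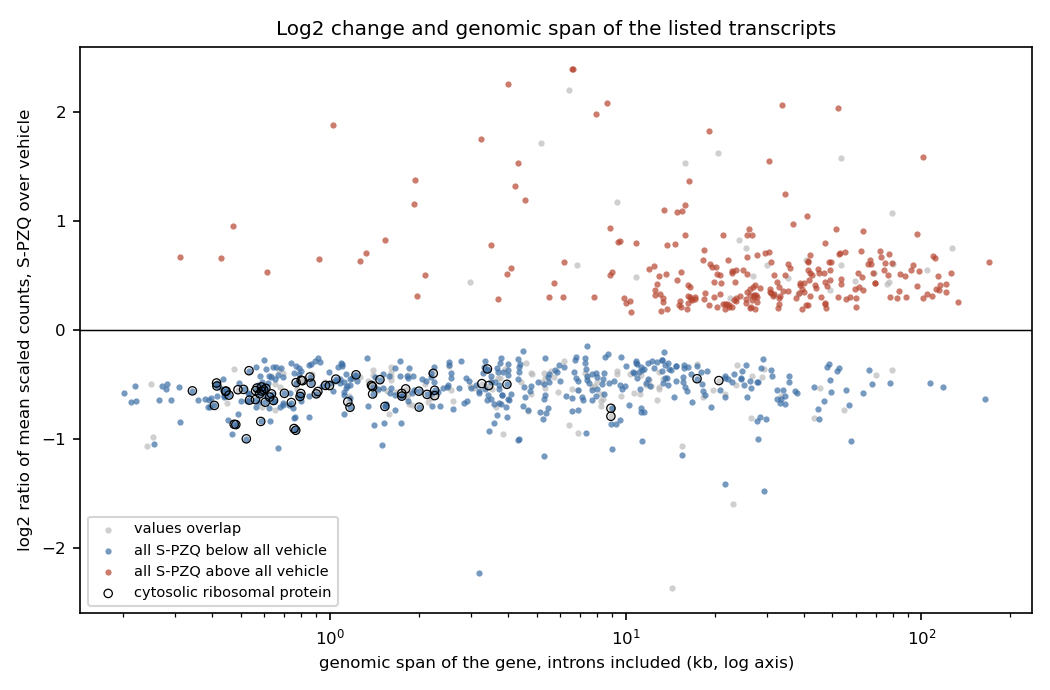
Log2 ratio of mean scaled counts, S-PZQ over vehicle (vertical axis), against genomic span in kb (horizontal log axis) for the listed transcripts, coloured by whether the 4 S-PZQ and 4 vehicle values overlap and with cytosolic ribosomal transcripts ringed. Lower transcripts fill the short spans and higher ones the long spans (medians of 3.51 and 26.7 kb); 57 transcripts beyond 2.5 on the log2 axis, or with a group at 0, are not drawn.

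Listed transcripts of 1 locus had the same direction. Reads split between them by estimate, and listing by the authors' tests, favour such agreement. At 21 loci more than 1 transcript was listed, 45 in all, and at each of the 21 all listed transcripts had lower means with S-PZQ. Of 87 pairs of listed loci that are neighbours in the annotation, 43 were both lower, 13 both higher and 31 opposite. With 67.2% of all listed transcripts lower and 32.8% higher, many pairs share a direction without any link between neighbours. No sharing between neighbours is therefore read from these pairs or from the runs below. Runs of 3 neighbouring listed loci with 1 direction occurred 6 times. Such a run held the CaBP2 group, and another, the only higher run, held a CD36-like scavenger receptor (Smp_011680.1), Smp_011690 with no product name and a tyrosine kinase (Smp_011700).

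The authors' tables differed in what they listed. Of the 202 transcripts that all 3 list, 160 were lower and 36 higher without overlap, against 438 and 265 of all 908. Of the 255 in the EBSeq table alone 52 were lower and 154 higher, and 69 of these 255 had a library at 0. Transcripts without a product name were divided much like the others, with 28.6% higher and 50% lower.

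Of the 908 transcripts 264 were listed for R-PZQ too, among them 6 cytosolic ribosomal ones. That comparison used the same 4 vehicle libraries, so the values only stand side by side. R-PZQ counts were brought to the scale used here through the factors of these vehicle libraries. 40S S12 (Smp_060090.1) was at -0.84 with S-PZQ and at -0.55 with R-PZQ on the log2 scale, and the 16 kDa calcium-binding protein Smp_025380 was at -0.86 with S-PZQ and -0.74 with R-PZQ. Most of the 264 lay on the same side of vehicle with both forms, which the shared vehicle libraries favour. Only a few lay on opposite sides of vehicle. The ryanodine receptor transcript Smp_163570 averaged 22909 ± 1807 scaled counts with S-PZQ, 44046 ± 2483 with R-PZQ and 35449 ± 2799 with vehicle, which put it at -0.63 with S-PZQ and 0.31 with R-PZQ. The beta tubulin Smp_030730 was at -0.42 with S-PZQ and 0.38 with R-PZQ, and the titin Smp_157010 at -0.52 with S-PZQ and 0.31 with R-PZQ. Flightless-I (Smp_165930), of a family of actin-binding proteins, was at 0.38 with S-PZQ and -0.50 with R-PZQ. All of these were chosen after their values were seen.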

How the data were processed

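RNA of 4 S-PZQ and 4 vehicle samples was compared. The submitters' processing notes name edgeR 3.20.8, DESeq2 1.18.1, RSEM 1.2.31, Bowtie2 2.2.9 and Trimmomatic 0.36 without roles. The genome build was not given in the sources used here. For each comparison the authors deposited 3 tables of transcripts that passed their tests: rounded counts and a normalized score per library (DESeq, edgeR), and expected counts with a normalized signal per library (EBSeq). The 3 S-PZQ tables were joined after repeated header lines were dropped. Counts common to the tables differed by at most 0.5. Each count was divided by the median ratio of expected count to normalized signal in its library.

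The log2 ratio is that of the group means, with an SE from the SDs of 4 libraries a group. edgeR 4.0.16 (quasi-likelihood) was run on rounded counts with these factors fixed and Benjamini-Hochberg adjustment, unlisted transcripts of the 11783 in the annotation being entered as 1, and DESeq2 1.42.0 likewise. The fit was tested on simulated data. PCR reads carry no molecular identifiers, so counts carry more than counting error.

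The named transcripts had a product name, a mean of at least 10 scaled counts and values that did not overlap: the 10 highest and 10 lowest log2 ratios and the 2 largest of each list with 3 or more listed members, plus the 2 highest levels in the ribosomal lists and the lists of other cell types. The rule also asked for a call in the fit, which was dropped because 0 transcripts were called, and non-overlap took its place after the data were seen. Other transcripts named in the text were chosen after their values were seen. The members and the 33 lists, matched on product names, were chosen with earlier results of these data known. Protein length could not be had, so genomic span was used instead. Library factors on the authors' DESeq and edgeR scale, an expression filter, depth, replicate number and left-out libraries were tried as alternatives.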

Additional observations from a re-analysis of the deposited data

Results flagged for a closer look

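Of 208 checks for a library far from the other 3 of its group, 13 stood out, where chance alone flags about 1 in 20. In vehicle 1, the summed female reproductive transcripts were at 7081 scaled counts, against 81.3 to 1210 in the other vehicle libraries, eggshell protein Smp_191910 was at 3097, against 8.64 to 372, and the summed extracellular matrix transcripts were at 24354.5, against 15704 to 16606. In vehicle 2, glyceraldehyde-3-phosphate dehydrogenase (Smp_056970.1) was at 193849, against 152776 to 159212, and the TRP channel Smp_169150 was at 0, against 22.8 to 26.0. In vehicle 3, the ran-binding protein Smp_078310.1 was at 46.9 and the splicing factor cwc-21 (Smp_041730.1) at 18.2, while the other vehicle libraries were at 0 for both. In vehicle 4, the cell adhesion molecule Smp_134190 was at 103.9, against 82.8 to 86.1.

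In S-PZQ 1, adenosylhomocysteinase (Smp_028440.1) was at 24.0 scaled counts, against 114.2 to 123.4 in the other S-PZQ libraries, cathepsin D (Smp_013040.1) was at 0, against 79.7 to 84.6, and a polyadenylate binding protein (XM_018800134.1) was at 2265, against 1745 to 1804. In S-PZQ 2, NPC2 (Smp_194840) was at 1225, against 2140.0 to 2178, and a prefoldin subunit (Smp_009390.1) was at 1067, against 1287 to 1325.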

How the results depend on the processing

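The number of calls depended on the test. Against 0 higher, 0 lower and 0 ribosomal transcripts called by the edgeR quasi-likelihood test, DESeq2 called 107 higher, 413 lower and 58 ribosomal (smallest adjusted p 5.7e-12), and adjustment over the listed transcripts alone, a lenient choice for a list that had already passed tests, called 253, 588 and 68. With 1 library left out the calls ran from 0 to 53 higher, 0 to 303 lower and 0 to 46 ribosomal, the upper values being those without vehicle replicate 1, and 1 lower call was made without vehicle replicate 3. The other settings tried gave 0 calls: factors of the authors' DESeq or edgeR tables, a mean of at least 100 scaled counts, an adjusted p of 0.01, transcripts of the EBSeq table or of the DESeq and edgeR tables alone, relative depth as a covariate (515 with an unadjusted p under 0.05, smallest adjusted p 0.477) and the replicate block (765, smallest adjusted p 0.320). Same-numbered samples did not consistently deviate together, with correlations of -0.41, -0.26, 0.42 and 0.15 over 813 transcripts. The labels do not say whether the replicate numbers pair the samples, and these correlations cannot settle it.

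The counts of transcripts whose values did not overlap were 18 for the ribosomal list among transcripts of the EBSeq table alone (50 among all) and 111 for higher transcripts in the DESeq and edgeR tables alone (265 among all), where fewer transcripts enter. With 1 library left out they ran from 266 to 284 higher, 440 to 541 lower and 50 to 66 ribosomal, but leaving out a library can only keep or raise such counts, so these ranges say nothing about stability. All 73 named transcripts with a ratio kept their sign in 1079 alternative values. Most of them were chosen for values that did not overlap, where leaving out 1 library cannot change the sign. Some settings also left the ratio unchanged, so the kept signs say little about stability. Depth, which differed between the groups, and the absence of unlisted transcripts limit these results.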
